A study of Ovis aries with 2 samples.

Results

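Oligodendrocyte precursor-like nuclei of adult sheep cerebral cortex were selected from 1 single-nucleus RNA-seq library by their transcripts, and 106 of its 2125 barcodes met the selection, a share of 4.99% (exact 95% interval 4.10 to 6.001%). A barcode is the label of a droplet meant to hold 1 nucleus, and whether a barcode held more was not tested. It was selected when its unique molecular identifiers (UMIs, which count captured RNA molecules) for PDGFRA, LHFPL3, VCAN and GPR17 came to at least 4 and to at least 3000 per 1000000 of its UMIs (CPM). It also had to hold SYT1 under 4000 CPM, the mature oligodendrocyte genes UGT8, ST18, ERMN and CLDN11 under 2000 CPM in sum, and the microglial genes CSF1R, P2RY12, INPP5D, C1QB and C1QC under 3000 CPM in sum. These values chose the barcodes and are therefore given as a description.

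The study split cerebral cortex of an adult female Rambouillet sheep, labelled wild type and between 18 and 36 months old, into a post-processed and a pre-processed condition, to ask how tissue handling changes the mixture of neural cell types. Post-processed tissue went through removal of debris and red blood cells before nuclei were isolated, and pre-processed tissue went straight to isolation. Each condition had 1 library, both carry the same batch label, no in vivo treatment was given, and the series description speaks of a single animal. For the post-processed library, the label for treatment denies the removal step named in its title and in the series description, so the direction of comparisons between the libraries rests on the titles.

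The post-processed library held 905 barcodes with a median of 146 UMIs (at least 44), and the pre-processed library 2125 barcodes with a median of 2524 UMIs (at least 904), counted over the 13765 features listed. By the study's account about 5000 nuclei were captured in each condition. The libraries shared 0 barcodes. With 1 library per condition no spread between animals or preparations can be measured, so no p-value is given, and all intervals are 95% intervals that cover counting error only. The listed genes are part of the genome, and several familiar genes of this lineage, such as CSPG4 and MBP, were not analysed here.

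Oligodendrocyte precursor cells are the resident proliferating glia of the adult brain, spread through grey and white matter. They sense platelet-derived growth factor through the receptor PDGFRA, carry chondroitin sulfate proteoglycans at their surface, receive synaptic input from neurons, and give rise to the oligodendrocytes that make myelin. In rodents, GPR17, an orphan G protein-coupled receptor, marks precursors that are about to differentiate and is switched off again in mature cells.

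The 106 precursor barcodes held 271890 UMIs, or 2.84% of the library's UMIs. They had between 904 and 8691 UMIs each, with a median of 1923, and a median of 999.5 detected genes. All other barcodes of the library had a median of 2596 UMIs. For comparison, barcodes were put into 4 further classes by the same kind of rule. There were 150 mature oligodendrocyte barcodes (median 1576.5 UMIs), 314 astrocyte barcodes (2537.5), 1140 neuronal barcodes (4180.5) and 52 microglial barcodes (1127.5), and 363 barcodes fell into no class. Neuronal barcodes held 73.9% of the library's UMIs, so they weigh most in the summed levels of all other barcodes.

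The summed level of the 4 selecting genes ran from 3009.78 to 31504.1 CPM over the precursor barcodes, with a median of 13943.7 CPM, and their summed UMIs from 4 to 128, with a median of 30. The barcodes just inside the minimum had 3009.78, 3064.62 and 3218.02 CPM, and those just outside it 2994.01, 2956.39 and 2762.43 CPM. The minima alone were met by 185 barcodes, and 79 of these went over a limit on another class, 42 over the oligodendrocyte limit only, 30 over the SYT1 limit only and 5 over the microglial limit only. A further 5 barcodes met the CPM minimum with fewer than 4 UMIs. The precursor barcodes thus include few that sit at the minimum, while their number depends on the limits set on other classes.

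**Figure D1:**
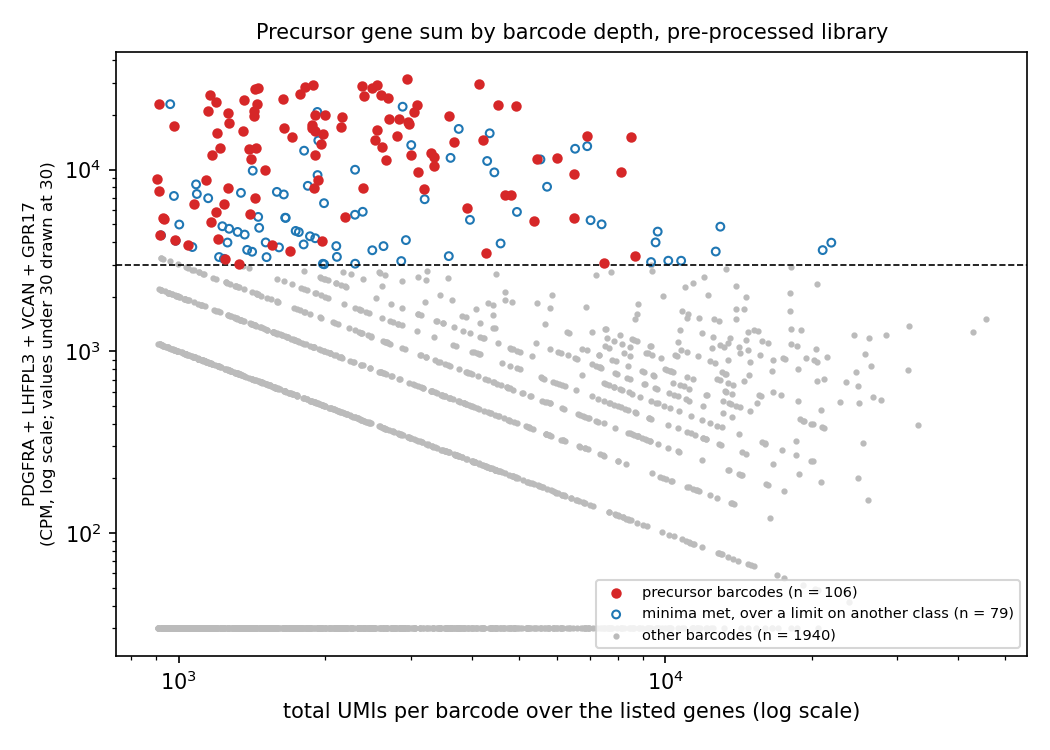
Summed CPM of PDGFRA, LHFPL3, VCAN and GPR17 (log scale) against total UMIs (log scale) for each of the 2125 pre-processed barcodes. The 106 precursor barcodes are red, the 79 barcodes that met the minima and went over a limit on another class are open blue circles, all others are grey, and the dashed line is the minimum of 3000 CPM. Grey points in rows are barcodes with the same small number of UMIs.

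LHFPL3, a tetraspan membrane protein gene, had a UMI in all 106 precursor barcodes. It was measured at 1182 CPM in the lowest, 10217 in the median and 27510 in the highest precursor barcode. Its 3023 UMIs made up 79.95% of the UMIs of the 4 selecting genes, which are not corrected for gene length. In 7 precursor barcodes it was the only selecting gene seen, 15 barcodes had 2 of the genes, 55 had 3 and 29 had all 4. Without LHFPL3 in the sum, 40 barcodes met the selection, so membership rests largely on this gene. LHFPL3 had 11118 CPM in precursor barcodes, against 891 CPM in mature oligodendrocyte, 128 in astrocyte, 511 in neuronal and 353 in microglial barcodes.

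PDGFRA had a UMI in 88 of the 106 precursor barcodes and a summed level of 1136 CPM (1013 to 1270), with a median of 1070 and a highest value of 5598 CPM over single barcodes. Its summed level was 17.1 CPM in mature oligodendrocyte, 22.6 in astrocyte and 9.18 in neuronal barcodes, and 0 UMIs were seen in microglial barcodes. VCAN, which encodes the proteoglycan versican, had a UMI in 89 precursor barcodes. It stood at 1456 CPM (1317 to 1607) in precursor barcodes, against 34.3 in mature oligodendrocyte, 106 in astrocyte, 28.8 in neuronal and 30.7 CPM in microglial barcodes. GPR17 was the sparsest of the selecting genes, with 53 UMIs in 35 precursor barcodes. Its level was 195 CPM (146 to 255) in precursor barcodes, against 2.26 in astrocyte and 1.13 in neuronal barcodes, with 0 UMIs in mature oligodendrocyte and microglial barcodes.

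2 precursor markers that took no part in the selection were set beside the name given to the barcodes. The marker lists were chosen with earlier results of these data known, so these levels describe the barcodes and are no independent check. BCAN encodes brevican, a brain proteoglycan, and had a UMI in 99 of 106 precursor barcodes. Its level was 3310 CPM (3097 to 3534) in precursor barcodes, against 250 in mature oligodendrocyte, 1485 in astrocyte, 79.4 in neuronal and 261 CPM in microglial barcodes. STK32A, a serine/threonine kinase gene, was measured at 397 CPM (326 to 480) in precursor barcodes, with a UMI in 57 of them. It had 2.26 CPM in astrocyte and 3.11 CPM in neuronal barcodes, and 0 UMIs in mature oligodendrocyte and microglial barcodes. Both markers were highest in the precursor barcodes among the 5 classes, with BCAN also high in astrocyte barcodes.

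Shares of barcodes with a UMI were set side by side after thinning every barcode to 900 UMIs, which left out none. BCAN then had a UMI in 85.8% of precursor barcodes (93.4% unthinned), against 15 of 150 mature oligodendrocyte, 70.4% of astrocyte and 9.74% of neuronal barcodes. STK32A had a UMI in 26.4% of precursor barcodes (53.8% unthinned), against 0.263% of neuronal barcodes and 0 of 314 astrocyte barcodes. A count of 0 still allows a small share. PDGFRA had a UMI in 65.1% of precursor barcodes (83.0% unthinned), against 0.667% of mature oligodendrocyte and 1.23% of neuronal barcodes. The source of the UMIs of these genes in the other classes was not tested.

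The list of precursor markers outside the selection held 22 genes, BCAN among them, and 10 were among the genes analysed. Enough UMIs to compare with all other barcodes (at least 10 expected in each group at the pooled rate) were seen for 8. At that depth 3543 genes could be compared. Of these, 336 (9.48%) were at least 2-fold higher in precursor barcodes and 458 (12.9%) at least 2-fold lower. When each barcode was given the same weight in place of each UMI, 221 were higher and 505 lower. The 8 markers had a median log2 ratio of 2.06, beside 0.07 over all genes compared. Of them 7, including BCAN, were at least 2-fold higher and 0 lower. The exception was DSCAM, an adhesion molecule gene, at 5414 CPM in precursor barcodes against 3192 CPM in all others (log2 ratio 0.76).

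NXPH1 encodes neurexophilin 1, a secreted ligand of neurexins, and had 2758 CPM in precursor barcodes, against 92.5 in mature oligodendrocyte, 90.4 in astrocyte and 651 in neuronal barcodes. MEGF11, which encodes a transmembrane protein with EGF-like repeats, had 1026 CPM in precursor barcodes, against 17.1 in mature oligodendrocyte, 16.9 in astrocyte and 222 CPM in neuronal barcodes. These 2 genes were low in both other macroglial classes and had an intermediate summed level in neurons. PTPRZ1 encodes a receptor-type phosphatase that is itself a proteoglycan, and its level was 3060 CPM in precursor barcodes, against 158 in mature oligodendrocyte and 2060 in astrocyte barcodes. Besides BCAN, the other markers at least 2-fold higher over the rest of the library were APOD (191 CPM), SMOC1 (533) and COL9A1 (177). APOD, a lipid carrier gene, was higher in mature oligodendrocyte barcodes, at 191 CPM in precursor barcodes against 500 CPM there.

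**Figure D2:**
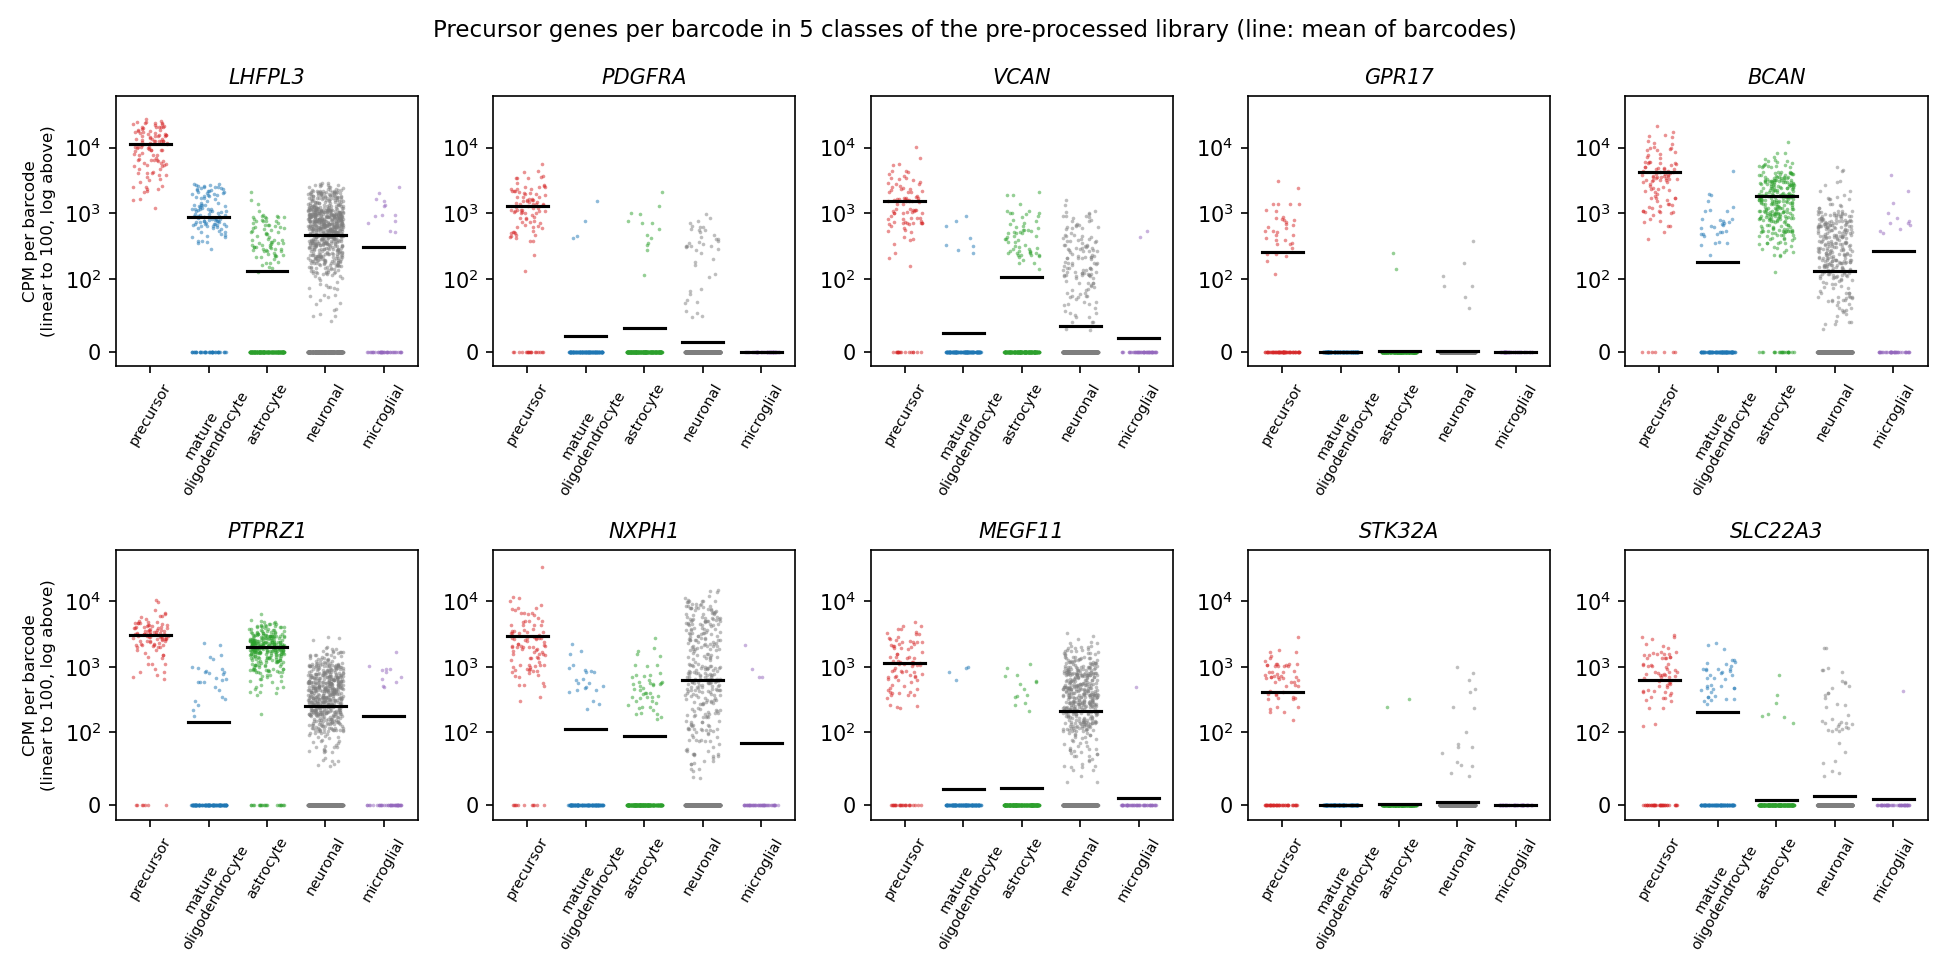
CPM of 10 genes in each barcode (vertical axis linear up to 100 and logarithmic above) for the precursor, mature oligodendrocyte, astrocyte, neuronal and microglial classes, with points spread sideways at random. The black line is the mean over barcodes. LHFPL3, PDGFRA, VCAN and GPR17 chose the precursor barcodes, and of the other 6 genes BCAN and PTPRZ1 are also high in astrocyte barcodes, and NXPH1 and MEGF11 in part of the neuronal barcodes.

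The lineage regulators OLIG1, OLIG2 and SOX10 were present at few UMIs. OLIG1, a basic helix-loop-helix factor of the lineage, had 140 CPM (98.9 to 192) in precursor barcodes, against 78.8 in mature oligodendrocyte, 14.7 in astrocyte and 3.95 CPM in neuronal barcodes. Of the 8 OLIG2 UMIs in the library, 6 lay in 6 precursor barcodes. SOX10, an HMG-box factor needed for the lineage, stood at 107 CPM (71.4 to 153) in precursor barcodes. It had 82.2 CPM in mature oligodendrocyte, 10.2 in astrocyte and 2.82 CPM in neuronal barcodes. For both OLIG1 and SOX10 the intervals of precursor and mature oligodendrocyte barcodes overlap.

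Over all genes compared with all other barcodes 9.48% were at least 2-fold higher and 12.9% lower. Of the 11 lineage regulators analysed, 5 could be compared with all other barcodes, 1 was at least 2-fold higher and 0 lower. The higher one was TCF12, a partner of the OLIG proteins, at 1747 CPM in precursor barcodes against 688 CPM in all others (log2 ratio 1.35). SOX5, which restrains differentiation in mouse precursors, had 1629 CPM in precursor barcodes against 1289 CPM in all others (0.34). ID2, an inhibitor of helix-loop-helix factors, had the lowest ratio of the 5, -0.47 (-1.55 to 0.31), on 40.5 CPM in precursor barcodes against 58.7 CPM in all others.

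Ranked over all genes compared, the 15 with the highest ratio included the selecting genes PDGFRA (log2 ratio 5.59), VCAN (4.75) and LHFPL3 (4.13), which the rule fixed, and BCAN (3.53). SLC22A3, an organic cation transporter gene, had 603 CPM in precursor barcodes against 26.7 CPM in all others (4.497, 4.20 to 4.79). CCDC50, a ubiquitin-binding signalling protein gene, had 1239 CPM in precursor barcodes against 83.7 CPM in all others (3.89, 3.70 to 4.07). The other genes of this group were SH3BP4 (3.67), VIT (3.57), TNS3 (3.34), UST (3.15), ATP10B (3.14), COL11A1 (3.13), KANK1 (3.13), CHST11 (3.07) and APBB2 (3.06). With each barcode given equal weight, SLC22A3 came to 3.82 and ATP10B to 2.37.

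Several of these genes were shared with another class. VIT, a matrix protein gene, had 1048 CPM in precursor barcodes, against 34.3 in mature oligodendrocyte and 612 CPM in astrocyte barcodes. ATP10B, a lipid flippase gene, had 942 CPM in precursor barcodes, against 675 in mature oligodendrocyte and 380 CPM in astrocyte barcodes. Against microglial barcodes 1471 genes could be compared, 396 (26.9%) at least 2-fold higher in precursor barcodes and 271 (18.4%) lower, and 7 of 8 precursor markers were higher, with APOD in between. CCDC50 and TNS3 were also measured in microglia, CCDC50 at 1239 CPM in precursor against 613 CPM in microglial barcodes, and TNS3 at 817 against 797 CPM. SLC22A3 was at 603 CPM in precursor barcodes, against 195 in mature oligodendrocyte and 7.91 CPM in astrocyte barcodes.

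At the other end, SCUBE1, ONECUT1, SOCS2, RAB3B and RESP18 had 0 UMIs in the precursor barcodes. Against a floor of 3 counts over the group, SCUBE1 was at least 5.39-fold lower in precursor barcodes, ONECUT1 at least 4.94-fold, SOCS2 at least 3.68-fold, RAB3B at least 3.63-fold and RESP18 at least 3.50-fold. CPNE6, KCNK12, NR4A3 and HTR1E had 1 UMI each there. EFNA5, an ephrin ligand gene, had 22.1 CPM in precursor barcodes against 306 CPM in all others (-3.68, -5.24 to -2.67). In all other barcodes these genes came chiefly from neurons, and each of the 10 had its highest level of the 5 classes there except NR4A3, which was highest in microglial barcodes.

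**Figure D3:**
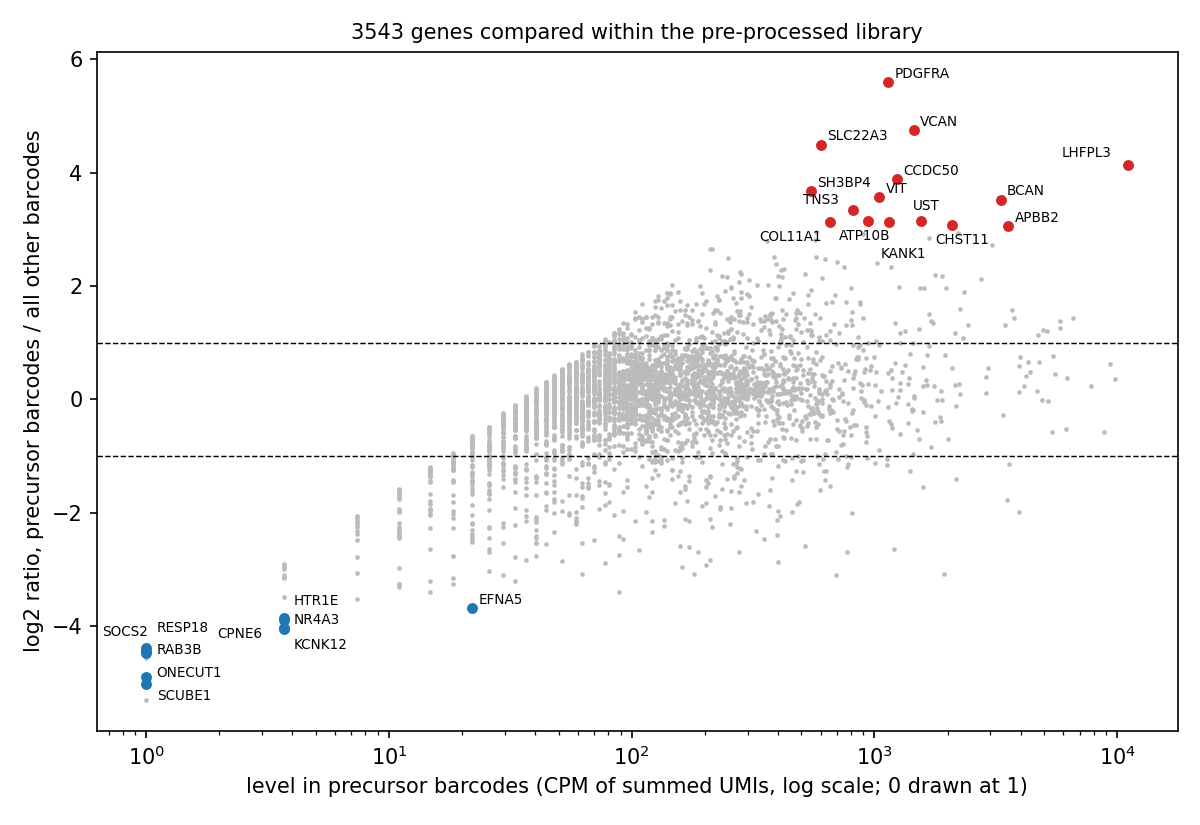
Log2 ratio of CPM, precursor barcodes over all other barcodes of the pre-processed library, against the CPM in precursor barcodes (log scale), for 3543 genes. Red marks the 15 highest and blue the 10 lowest genes with a symbol, and dashed lines mark a 2-fold difference. Genes with 0 UMIs in precursor barcodes are drawn at 1 CPM.

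Receptor tyrosine kinases carry signals of growth factors, among them the neuregulin receptors ERBB3 and ERBB4. Of 15 receptor tyrosine kinase genes analysed 8 could be compared with all other barcodes, with 2 at least 2-fold higher, ERBB3 (log2 ratio 1.48) and ROR1 (1.08), and 0 lower, beside 9.48% higher and 12.9% lower over all genes compared. ERBB3 was at 166 CPM in precursor barcodes, against 771 in mature oligodendrocyte, 41.8 in astrocyte and 16.5 CPM in neuronal barcodes. Its level among precursors therefore lay between the mature class and the others. ERBB4 had 3398 CPM in precursor barcodes, against 6693 in mature oligodendrocyte and 3791 CPM in neuronal barcodes, and its ratio over the rest was the lowest of the 8 (-0.27). The PDGF ligand gene analysed, PDGFB, had 1 UMI in the precursor barcodes.

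Among Notch, Wnt and BMP pathway genes, 7 of 16 could be compared with all other barcodes, and 3 were at least 2-fold higher and 0 lower, beside 9.48% higher and 12.9% lower over all genes compared. These were the receptor gene NOTCH2 (log2 ratio 1.46), the Wnt co-receptor gene LRP6 (1.43) and the Wnt effector gene TCF7L1 (1.43). TCF7L1 had 360 CPM in precursor barcodes, against 92.5 in mature oligodendrocyte and 1097 CPM in astrocyte barcodes. NOTCH1 and the Notch ligand gene DLL1 had too few UMIs for that comparison. NOTCH1 had 110 CPM in precursor barcodes, against 41.1 in mature oligodendrocyte, 93.8 in astrocyte and 3.11 CPM in neuronal barcodes. DLL1 had 77.2 CPM (17 precursor barcodes with a UMI), against 30.8 in mature oligodendrocyte, 13.6 in astrocyte and 5.65 CPM in neuronal barcodes. BMPR1B, a BMP receptor gene, was at 206 CPM in precursor barcodes against 1890 CPM in astrocyte barcodes. The list differed between the other macroglial classes. Against astrocyte barcodes 0 of 9 genes were higher and 4 lower (11.6% and 14.5% of all genes compared). Against mature oligodendrocyte barcodes 5 of 9 were higher and 0 lower (18.8% and 13.2%).

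Precursor cells carry and secrete proteoglycans, proteins with long sulfated sugar chains. Of 14 genes of these proteins, their partners and their enzymes 10 could be compared with all other barcodes, with 4 at least 2-fold higher (BCAN, PTPRZ1, CHST11 and SDC3) and 3 lower (CHSY3, TNC and HAPLN4), beside 9.48% higher and 12.9% lower over all genes compared. CHST11 encodes a sulfotransferase that acts on chondroitin chains, and it was at 2093 CPM in precursor barcodes, against 58.2 in mature oligodendrocyte, 874 in astrocyte and 160 CPM in neuronal barcodes. UST, another sulfotransferase gene for such chains, had 1559 CPM in precursor barcodes, against 387 in mature oligodendrocyte, 335 in astrocyte and 106 CPM in neuronal barcodes. CHSY3, a chain-extending synthase gene, had the lowest ratio of the list over all other barcodes, -1.39. Its level was 265 CPM in precursor barcodes, against 809 CPM in neuronal barcodes. TNC, the matrix glycoprotein gene tenascin C, was low in precursor barcodes at 25.7 CPM, against 522 CPM in astrocyte barcodes. NCAN, which encodes neurocan, had 280 CPM in precursor barcodes against 261 CPM in all others, so it did not share the ratio of BCAN.

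Collagen genes differed from each other. COL11A1, which encodes a fibrillar collagen chain, had 658 CPM in precursor barcodes (75 of 106 with a UMI), against 13.7 in mature oligodendrocyte, 16.9 in astrocyte and 77.2 CPM in neuronal barcodes. COL9A1 had 177 CPM in precursor barcodes, against 24.0 in mature oligodendrocyte, 15.8 in astrocyte and 77.2 CPM in neuronal barcodes. Of 8 collagen genes compared with all other barcodes, these 2 were at least 2-fold higher and 3 were lower, COL19A1 (-2.12), COL27A1 (-1.25) and COL25A1 (-1.02), beside 9.48% higher and 12.9% lower over all genes compared. COL9A2, which had too few UMIs for the comparison, had 125 CPM in precursor barcodes, against 82.2 in mature oligodendrocyte and 3.67 CPM in neuronal barcodes.

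Some receptor and channel genes had summed levels in precursor barcodes near those of neurons, but each list below had more lower than higher genes. Precursor barcodes were set against the neuronal class, where 3314 genes could be compared, 421 (12.7%) at least 2-fold higher and 500 (15.1%) at least 2-fold lower. Of 9 ionotropic glutamate receptor and partner genes 1 was at least 2-fold higher and 3 were lower. The AMPA receptor gene GRIA1 had 1879 CPM in precursor barcodes against 2634 CPM in neuronal barcodes, and the kainate receptor gene GRIK2 1887 against 1920 CPM. The NMDA receptor genes GRIN1 (84.6 against 417 CPM) and GRIN2B (805 against 3777 CPM) and the AMPA receptor partner gene CACNG2 (147 against 410 CPM) were the 3 lower ones.

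Of 6 GABA-A receptor subunit genes compared with neurons 4 were at least 2-fold lower and 0 higher. Over all genes compared with neurons 15.1% were lower and 12.7% higher. GABRB1 had 1000.4 CPM in precursor barcodes, against 1849 in neuronal, 3206 in mature oligodendrocyte and 4896 CPM in astrocyte barcodes. GABRG1 was the 1 subunit gene at least 2-fold higher than in all other barcodes, at 140 against 55.4 CPM (log2 ratio 1.35), and it was also high in astrocyte barcodes at 235 CPM.

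Of 9 voltage-gated sodium and calcium channel genes 0 were at least 2-fold higher than in neurons and 4 were lower. The shares over all genes compared with neurons were 12.7% higher and 15.1% lower. SCN1A, a sodium channel gene, had 552 CPM in precursor barcodes, against 744 in neuronal, 68.5 in mature oligodendrocyte and 83.6 CPM in astrocyte barcodes. SCN2A had 401 CPM in precursor barcodes, against 622 in neuronal, 82.2 in mature oligodendrocyte and 99.4 CPM in astrocyte barcodes. Both sodium channel genes thus stood apart from the other macroglial classes. CACNA1C, an L-type calcium channel gene, was lower, at 316 CPM in precursor barcodes against 1367 CPM in neuronal barcodes, and CACNA1I lower still relative to neurons, at 11.03 against 155 CPM.

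Among 16 potassium channel genes compared with neurons 2 were at least 2-fold higher, KCNMB2 and KCNH8, and 6 lower, beside 12.7% higher and 15.1% lower over all genes compared. The share of higher genes was thus near that of all genes. KCND2, an A-type channel gene, had 4704 CPM in precursor barcodes, against 2469 in neuronal, 202 in mature oligodendrocyte and 952 CPM in astrocyte barcodes. Its partner gene DPP6 had 6595 CPM in precursor barcodes, against 2783 in neuronal, 301 in mature oligodendrocyte and 313 CPM in astrocyte barcodes. KCNMB2, a subunit gene of the large-conductance calcium-activated channel, had 1600 CPM in precursor barcodes, against 436 in neuronal, 264 in mature oligodendrocyte and 24.9 CPM in astrocyte barcodes. KCNJ10, the inward rectifier gene of glia, had 283 CPM in precursor barcodes, against 16.5 in neuronal, 356 in mature oligodendrocyte and 371 CPM in astrocyte barcodes. KCNJ3 (88.3 against 1141 CPM) and KCNQ5 (515 against 3721 CPM) were among the genes lower than in neurons.

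Neuronal genes were measured beside these receptors and channels. The 7 pan-neuronal markers analysed summed to 3932 CPM in precursor barcodes, against 2750 in mature oligodendrocyte, 2377 in astrocyte, 4953 in microglial and 31580 CPM in neuronal barcodes, and all 7 had UMIs in precursor barcodes. SYT1, whose limit was part of the selection, had 1199 CPM in precursor against 9292 CPM in neuronal barcodes, and KCNIP4 1942 CPM in precursor against 20165 CPM in neuronal barcodes. Their part in the levels of receptor and channel genes was not tested. KCND2, DPP6 and KCNMB2 were higher in precursor than in neuronal barcodes.

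**Figure D4:**
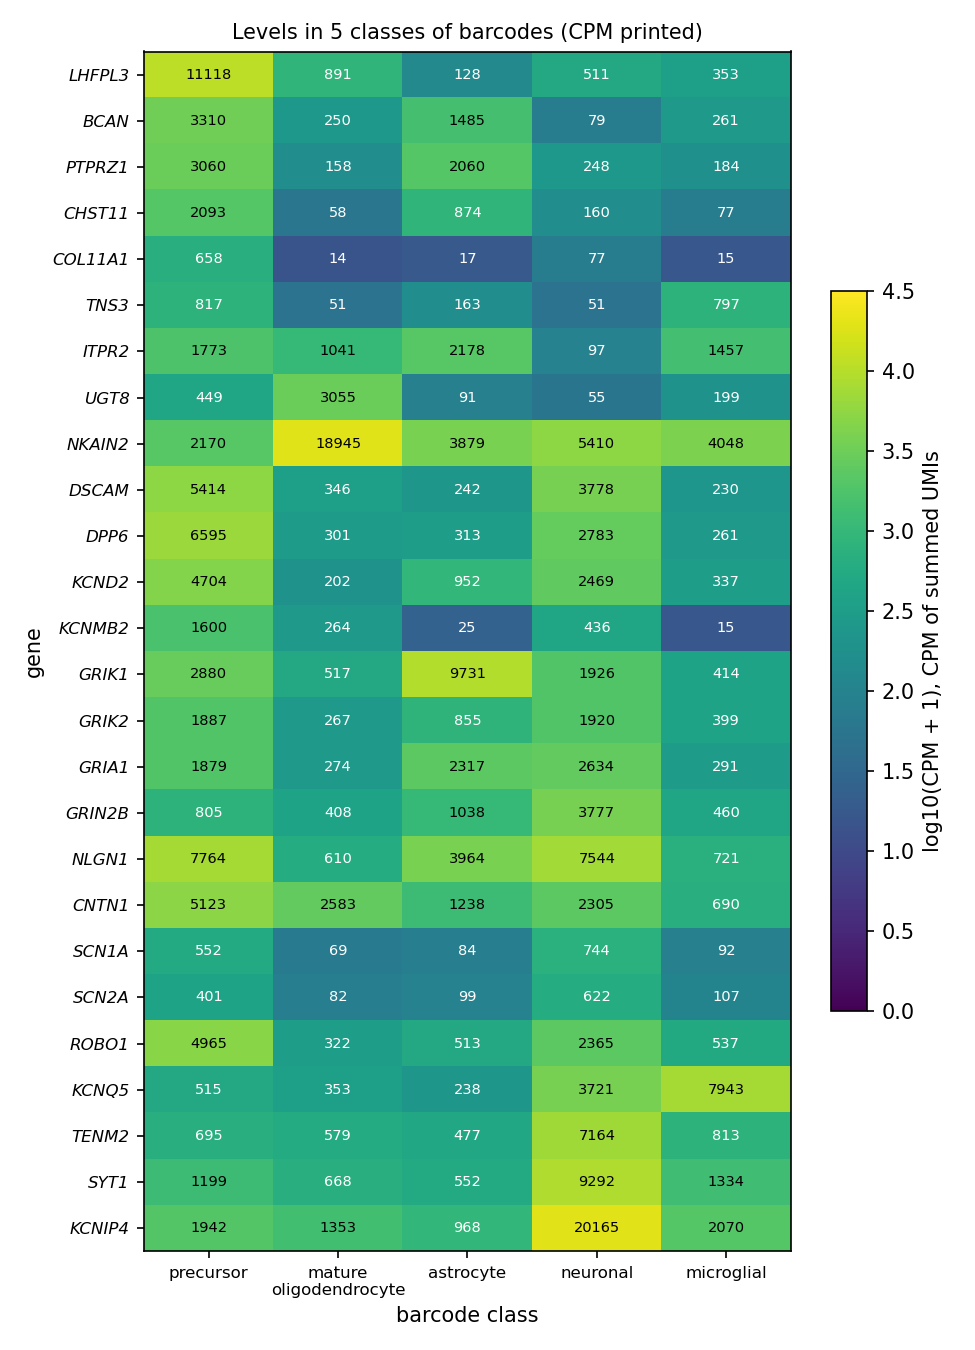
CPM of summed UMIs for 26 genes in the precursor, mature oligodendrocyte, astrocyte, neuronal and microglial classes, printed in each cell and coloured by log10(CPM + 1). KCND2, DPP6 and KCNMB2 are highest in the precursor column, while GRIN2B, TENM2, SYT1 and KCNIP4 are highest in the neuronal column. LHFPL3 took part in the selection, and SYT1 and UGT8 were limited by it.

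Adhesion molecule genes were among those with the most UMIs in the precursor barcodes. The genes with the most UMIs included LHFPL3, LRP1B, CADM2, NLGN1, DPP6, LSAMP, ADGRB3 and NCKAP5. NLGN1, the gene of the synaptic adhesion protein neuroligin 1, had 7764 CPM in precursor barcodes, against 7544 in neuronal, 610 in mature oligodendrocyte and 3964 CPM in astrocyte barcodes. Of 18 adhesion genes compared with all other barcodes 1 was at least 2-fold higher, CNTN1 (log2 ratio 1.21), and 4 were lower, TENM2 (-3.09), CNTNAP5 (-2.05), PTPRD (-1.98) and NRXN3 (-1.78). Over all genes compared 9.48% were higher and 12.9% lower.

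Guidance genes encode ligands and receptors that steer cells and axons. Of 21 compared with all other barcodes 11 were at least 2-fold lower and 2 higher, beside 12.9% lower and 9.48% higher over all genes compared. The higher ones were ROBO1, a Slit receptor gene, and the semaphorin gene SEMA6A (log2 ratios 1.22 and 1.23). ROBO1 had 4965 CPM in precursor barcodes, against 2365 in neuronal and 322 CPM in mature oligodendrocyte barcodes, while ROBO2 had 456 CPM in precursor against 2067 CPM in neuronal barcodes. The ligand gene SLIT2 was at 188 CPM in precursor barcodes against 1481 CPM in neuronal barcodes. Against neuronal barcodes 11 of 21 guidance genes were also lower and 2 higher (15.1% and 12.7% of all genes compared). The other macroglial classes went the other way. Against mature oligodendrocyte barcodes 11 of 20 were higher and 3 lower (18.8% and 13.2%). Against astrocyte barcodes 10 of 18 were higher and 3 lower (11.6% and 14.5%).

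Against mature oligodendrocyte barcodes, 3648 genes could be compared, 685 (18.8%) at least 2-fold higher in precursor barcodes and 482 (13.2%) at least 2-fold lower. Of 10 further myelin and mature oligodendrocyte genes 8 were at least 2-fold lower and 1 higher. NKAIN2 had 2170 CPM in precursor against 18945 CPM in mature oligodendrocyte barcodes, SLC24A2 1861 against 13917 CPM and NCKAP5 5804 against 19760 CPM. TF, the transferrin gene, had 232 against 1397 CPM, and MAL, a myelin proteolipid gene, 36.8 against 425 CPM. PDE1C was the 1 higher gene, at 449 against 89.1 CPM. UGT8, the enzyme gene of galactocerebroside synthesis, was limited by the selection and had 449 against 3055 CPM.

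Early differentiation genes were mixed in this comparison. Of 6 compared with mature oligodendrocyte barcodes 2 were at least 2-fold higher and 3 lower, beside 18.8% and 13.2% over all genes compared. TNS3, a focal adhesion protein gene that marks immature oligodendrocytes in mice, had 817 CPM in precursor barcodes against 51.4 CPM in mature oligodendrocyte barcodes (log2 ratio 3.95). FYN, a kinase gene that acts in myelination, had 758 against 343 CPM (1.14). SEMA4D (261 against 1052 CPM), CNKSR3 (195 against 497 CPM) and CD9 (25.7 against 85.6 CPM) were the lower ones. ITPR2, a calcium release channel gene that in mice marks newly formed oligodendrocytes, had 1773 against 1041 CPM (0.77), and its level in astrocyte barcodes was 2178 CPM. BMP4 had 0 UMIs in the precursor barcodes.

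The 10 genes with the highest ratio over mature oligodendrocyte barcodes were STK32A, LAMA4, GPR17, EVA1A, SULF1, SHD, PDGFRA, ATCAY, ST6GAL2 and OTOS. STK32A, LAMA4, GPR17, EVA1A, SHD, SULF1 and OTOS had 0 UMIs in the mature class, so only bounds can be given. The exact intervals of the log2 ratio start at 4.95 for STK32A, 4.31 for the laminin gene LAMA4, 3.90 for GPR17 and 3.62 for EVA1A. ATCAY, the gene of a neuronal and glial lipid-binding protein, had 511 against 6.85 CPM (5.90), and the sialyltransferase gene ST6GAL2 872 against 13.7 CPM (5.82). OTOS rested on few barcodes: 21 of its 25 UMIs lay in 2 precursor barcodes described below.

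Against astrocyte barcodes, 3784 genes could be compared, 440 (11.6%) at least 2-fold higher in precursor barcodes and 549 (14.5%) at least 2-fold lower. The 10 highest were STK32A (log2 ratio 7.14), LHFPL3 (6.44), SLC1A1 (6.22), TGFA (6.20), SLC22A3 (6.16), GPR17 (6.12), KCNMB2 (5.98), MEGF11 (5.88), EVA1A (5.86) and BMPER (5.74). SLC1A1, the gene of a glutamate transporter known from neurons, had 629 CPM in precursor barcodes, against 7.91 in astrocyte, 34.3 in mature oligodendrocyte and 224 CPM in neuronal barcodes. TGFA, a ligand gene of the EGF receptor, had 206 CPM in precursor barcodes, against 2.26 in astrocyte, 20.6 in mature oligodendrocyte and 10.2 CPM in neuronal barcodes. BMPER, a gene of a secreted BMP-binding protein, had 390 CPM in precursor barcodes, against 6.78 in astrocyte, 68.5 in mature oligodendrocyte and 116 CPM in neuronal barcodes. Of 8 astrocyte markers compared 7 were at least 2-fold lower in precursor barcodes, but 7 of the 8 had been used to define the astrocyte class.

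Cell cycle genes were hardly measured. The 18 analysed had 25 UMIs in all in the precursor barcodes, 91.9 CPM (59.5 to 136), against 116 (80.7 to 163) in mature oligodendrocyte, 70.0 (53.7 to 89.8) in astrocyte, 53.8 in neuronal and 291 CPM (175 to 455) in microglial barcodes. A UMI of any of them was seen in 17 of 106 precursor barcodes, 8 of the genes had none, and the intervals of the sum overlap among the 3 macroglial classes. POLQ, a DNA polymerase gene, was the 1 gene of the list with enough UMIs for the comparison with mature oligodendrocyte barcodes, at 29.4 CPM in precursor barcodes against 71.9 CPM there (log2 ratio -1.24, -2.67 to -0.06). MKI67 and TOP2A were not analysed here. Immediate early genes, which respond within minutes to stimulation or handling, summed to 199 CPM (149 to 259) in precursor barcodes, against 216 in mature oligodendrocyte, 259 in astrocyte, 410 in neuronal and 751 CPM in microglial barcodes, and FOS, JUNB, EGR1 and ARC had 0 UMIs in precursor barcodes.

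The precursor barcodes were then described among themselves with the 14 genes of the selection removed. For each barcode the 15 nearest neighbours were found on 30 principal components of 2000 variable genes. The median precursor barcode had 15 of 15 neighbours that were precursor barcodes too, and 80 of 106 (75.5%) had at least 8. Of the 2019 other barcodes 11 had at least 8 precursor neighbours. All 11 had met the precursor minima and gone over a limit, 7 over the oligodendrocyte limit, 2 over the SYT1 limit and 2 over the microglial limit. With the fixed precursor and lineage genes removed as well, 80 precursor barcodes and 10 others had at least 8.

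The 26 precursor barcodes with fewer than 8 precursor neighbours had lower levels of the selecting genes, with a median sum of 5451 CPM against 17002 CPM in the 80 with a majority. PDGFRA was at 630 CPM in the 26 against 1389 CPM in the 80, BCAN at 1912 against 4007 CPM and MEGF11 at 453 against 1312 CPM. The 26 were higher in NKAIN2 (4356 against 1080 CPM), KCNIP4 (3438 against 1196 CPM) and ST18 (232 against 55.1 CPM), genes of mature oligodendrocytes and neurons. Their part in the position of these barcodes was not tested. The astrocyte marker sum reached 3000 CPM in 16 of the 106 precursor barcodes and in 10 of these 26.

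Markers of other classes in the precursor barcodes varied from barcode to barcode. The 8 astrocyte markers ran from 0 to 10047 CPM with a median of 1396 CPM, and all 8 had UMIs. The 8 microglial markers ran from 0 to 3727 CPM with a median of 161 CPM, and C1QA, C1QB and C1QC were at 0. The 10 endothelial and mural markers had a median of 0, but 2 precursor barcodes stood at 20387 and 12887 CPM, with the next at 2191 CPM. These 2 had 4 and 6 LHFPL3 UMIs and 0 of PDGFRA, VCAN and GPR17, and they held 11 of the 14 ABCC9 UMIs of all precursor barcodes. Without them the log2 ratio of OTOS over all other barcodes was 0.64 in place of 3.13.

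Levels also varied with depth. BCAN had 6546 CPM in the 36 precursor barcodes of 904 to 1439 UMIs, 3517 CPM in the 35 of 1446 to 2669 UMIs and 2333 CPM in the 35 of 2694 to 8691 UMIs. GPR17 had 371, 211 and 139 CPM and PDGFRA 1578, 1238 and 970 CPM in these 3 depth ranges. PTPRZ1, at 2739, 3306 and 3037 CPM, and LHFPL3, at 9285, 14291 and 10189 CPM, had no such order. Depth thus belongs beside any comparison among precursor barcodes.

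PDGFRA, an early mark of the rodent lineage, and GPR17, a later one, both took part in the selection. Both had a UMI in 29 precursor barcodes, PDGFRA without GPR17 in 59, GPR17 without PDGFRA in 6 and neither in 12. With every barcode thinned to 900 UMIs these numbers were 9, 60, 8 and 29, so the overlap seen depends on depth. The barcodes with both had a median of 2534 UMIs and those with neither 1286 UMIs. The 35 precursor barcodes with a GPR17 UMI had a median of 2165 UMIs and the 71 without one 1894 UMIs. Between them 1909 genes could be compared, 33 (1.73%) at least 2-fold higher with GPR17 and 70 (3.67%) at least 2-fold lower. The split uses a gene of the selection, and a barcode without a UMI may still carry the transcript.

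Of 7 differentiation genes analysed 5 could be compared in this split, with 1 at least 2-fold higher and 0 lower. The shares over all genes compared in the split were 1.73% higher and 3.67% lower. CNKSR3, a scaffold protein gene, was at 304 CPM in barcodes with GPR17 against 136 CPM in those without (log2 ratio 1.15, 0.33 to 2.001). TNS3 was at 1005 against 714 CPM (0.49, 0.09 to 0.89), FYN at 932 against 663 CPM (0.49, 0.08 to 0.90) and SEMA4D at 293 against 244 CPM (0.27, -0.48 to 0.99). ITPR2 went the other way, at 1507 against 1917 CPM (-0.34, -0.64 to -0.06). CD9 had 3 and 4 UMIs and BMP4 0 in both groups. Of the 5 ratios 4 were thus above 0 and that of ITPR2 below it, with a median of 0.49 beside -0.0039 over all genes compared in the split.

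UGT8, an early gene of myelin lipid synthesis, was at 628 CPM in barcodes with GPR17 against 352 CPM in those without (0.84, 0.30 to 1.37). UGT8 and ST18 were held under 2000 CPM in sum with ERMN and CLDN11, so their ratios are fixed in part by the selection. ST18, a zinc finger factor gene, was at 199 against 68.0 CPM (1.53, 0.43 to 2.72), on 19 and 12 UMIs, and with every barcode thinned to 900 UMIs its ratio was -1.70, so its direction is not settled. APOD (1.32, 0.49 to 2.20) and MEGF11 (0.67, 0.32 to 1.02) were higher with GPR17, and NXPH1 was lower (-0.52, -0.77 to -0.29). PDGFRA was at 1298 against 1049 CPM (0.31, -0.03 to 0.64), and its interval takes in no difference. Neuronal genes differed too, SYT1 at 858 against 1384 CPM and KCNIP4 at 1099 against 2399 CPM, and their part in these ratios was not tested.

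**Figure D5:**
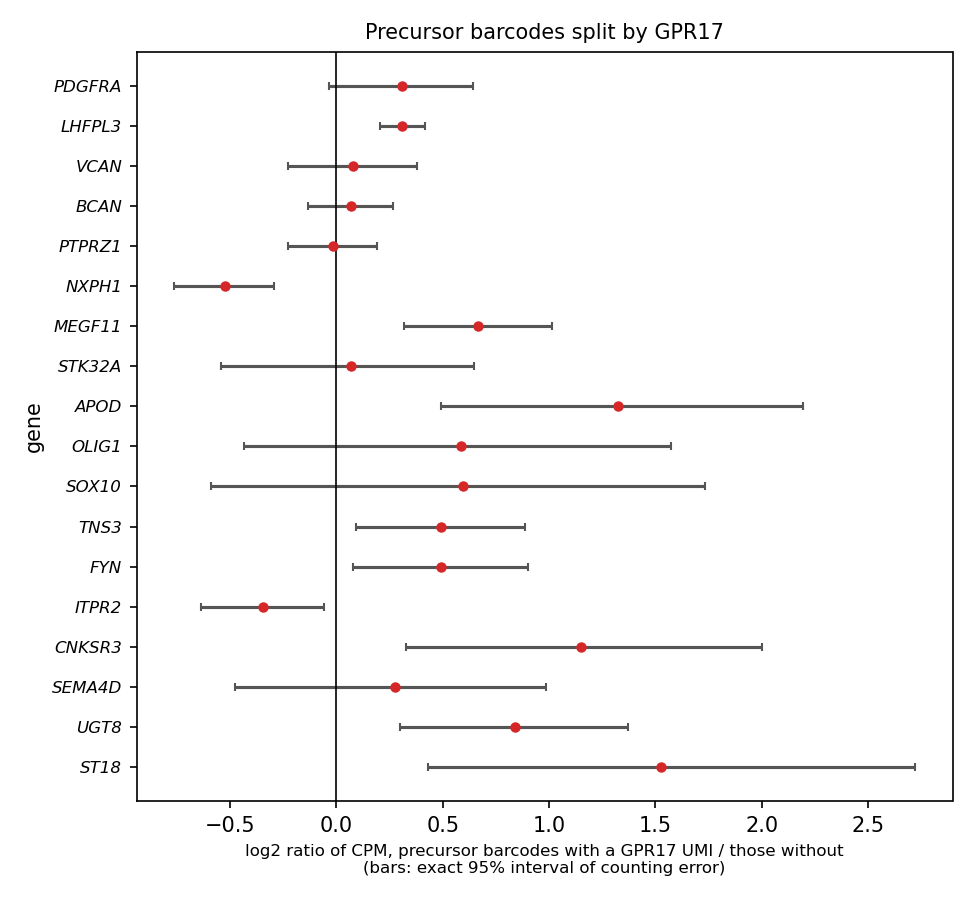
Log2 ratio of CPM, 35 precursor barcodes with a GPR17 UMI over 71 without one, for 18 genes, with exact 95% intervals of counting error as bars and a line at 0. CNKSR3, UGT8, APOD and MEGF11 lie to the right of 0 and NXPH1 and ITPR2 to the left, while the intervals of PDGFRA, VCAN, BCAN and STK32A include 0. PDGFRA, LHFPL3 and VCAN took part in the selection, and UGT8 and ST18 were limited by it.

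In the post-processed library 3 of 905 barcodes met the selection, 0.331% (0.0684 to 0.966%), against 106 of 2125 in the pre-processed library, 4.99% (4.10 to 6.001%). The 3 barcodes had 2419, 1655 and 528 UMIs. LHFPL3 had 17 UMIs in the first, 6 in the second and 0 in the last, which met the selection through 15 UMIs of VCAN alone. PDGFRA, GPR17, BCAN, STK32A, PTPRZ1, OLIG1, OLIG2 and SOX10 had 0 UMIs in all 3, and NXPH1 had 2 UMIs in the first barcode. The name of precursor is therefore not backed by BCAN or STK32A there. The minima alone were met by 8 post-processed barcodes, of which 5 went over the oligodendrocyte limit.

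The libraries differ in depth as well as in handling, and 213 of the 905 post-processed barcodes reached the 904 UMIs of the shallowest pre-processed one. After thinning to 200 UMIs the minimum was set to 1 UMI of the 4 genes. At that depth 1 UMI lies above the CPM minimum and above every CPM limit. A barcode then needed 1 UMI of the 4 genes and 0 of the limited genes, which is a different rule from the selection. It was met by 16 of 405 post-processed barcodes (3.95%, 2.27 to 6.34%) and 133 of 2125 pre-processed barcodes (6.26%, 5.27 to 7.37%). 500 post-processed barcodes with fewer UMIs were left out of that comparison and 0 pre-processed ones. The part of depth in the difference between the libraries was not tested, and with 1 library each, handling and library cannot be told apart.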

How the data were processed

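The deposited matrices hold whole-number UMI counts per gene and barcode, with no normalization by the authors, per the values in the deposited files. DRAGEN is the tool listed in the submitters' processing notes, and the series description mentions Seurat. Versions, genome build, annotation and barcode calling: not given in the sources used here. Counts were summed over the barcodes of a class and divided by the class total over listed genes (CPM). Log2 ratios have 0.5 counts added to each sum and exact conditional binomial intervals; levels have exact Poisson and shares Clopper-Pearson intervals. A comparison took genes with at least 10 UMIs expected in each group. Comparison classes used 4 UMIs and the same limits, with 7 listed astrocyte genes at 3000 CPM, and stayed under the limits of every other class. The 24 gene lists overlap in places (BCAN, PTPRZ1, DSCAM, COL9A1 and KCNIP4 stand in more than 1).

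Named genes are those of the selection, the 15 highest and 10 lowest ratios over all other barcodes, the 10 highest over mature oligodendrocyte and over astrocyte barcodes, the 10 with the most UMIs, and in each list those of highest level and of highest and lowest ratio. Other genes were named after their values were seen. Some genes that this rule names are not reported here. The members and lists were chosen with earlier results of these data known. No doublet caller was run, and the selection sets no limit on astrocyte or vascular genes, so barcodes of mixed content can remain. Thinning used fixed seeds. The ratio script was tested on simulated data. Python 3.11.15 with numpy 2.4.6, scipy 1.17.1, pandas 2.3.3 and scikit-learn 1.9.0 was used.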

Additional observations from a re-analysis of the deposited data

How the results depend on the processing

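With 1 library per condition and 1 animal, all values describe these libraries. No paired analysis was possible because each condition has 1 library. The share of precursor barcodes was 6.40% with no limit on SYT1, 6.96% with no limit on mature oligodendrocyte genes and 1.88% with LHFPL3 left out of the sum, a setting chosen after seeing the data, beside 4.99%. The other 8 settings gave 4.24 to 5.51%. The count of genes at least 2-fold higher was 221 of 3543 compared with equal weight for each barcode, beside 336 of 3543. It was 646 of 5543 with at least 3 and 84 of 1062 with at least 50 UMIs expected. The count of lower genes was 759 of 5543 and 202 of 1062 in these last 2 settings, beside 458 of 3543. The post-processed share was 3.95% (pre-processed 6.26%) after thinning to 200 UMIs with a minimum of 1 UMI in place of 4 and 500 shallower barcodes left out. At that depth 1 UMI lies above every CPM limit, so the rule is not that of the main share. ST18 in the GPR17 split turned to -1.70 when barcodes were thinned to 900 UMIs, and the cause was not tested. Besides ST18, 7 of 40 values of 10 genes in this split lay outside the interval under 4 settings. Among them SEMA4D was at -1.16 and CNKSR3 at 0.24 after thinning. The median of the 5 differentiation genes, 0.49, was 0.24 after thinning and 0.49 with at least 2 GPR17 UMIs. It was 0.53 with equal weight for each barcode and 0.44 without the 10% of precursor barcodes with the most UMIs. No sign turned in 384 values of 48 named genes over all other barcodes under 8 settings, 2 of them chosen after seeing the data, and 100 of these values lay outside the interval. NCKAP5 had a log2 ratio of 1.27 and 0.37 with equal weight for each barcode. Thinned to 900 UMIs, 17 barcodes kept a GPR17 UMI in place of 35.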

Other observations

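Barcodes that met the precursor minima and went over the oligodendrocyte limit only carried genes of both classes. The 42 of them had a median of 1788.5 UMIs and a median selecting sum of 5428 CPM, with PDGFRA at 475 CPM, LHFPL3 at 7497 CPM, BCAN at 1882 CPM and OLIG1 at 188 CPM. In the same barcodes UGT8 was at 2080 CPM, SLC24A2 at 10755 CPM and NKAIN2 at 12251 CPM, beside 449, 1861 and 2170 CPM in the 106 precursor barcodes. GPR17 was seen in 6 of the 42. Whether such barcodes hold 1 nucleus or more was not tested.

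The 30 barcodes over the SYT1 limit only had a median of 2445.5 UMIs, LHFPL3 at 3700 CPM, PDGFRA at 274 CPM, SYT1 at 6898 CPM and KCNIP4 at 13604 CPM. The 5 over the microglial limit only had a median of 2305 UMIs, with LHFPL3 at 8435 CPM, PDGFRA at 613 CPM (8 UMIs, 265 to 1209 CPM), BCAN at 2761 CPM (36 UMIs, 1933 to 3822 CPM) and SOX10 at 307 CPM (4 UMIs, 83.6 to 785 CPM).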
